A study of Homo sapiens with 6 samples.

Results

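GDF15 and 9 genes of TGF-β signalling were followed in U-2 OS cells, a human osteosarcoma line, after ionizing radiation (IR). The 10 genes are 5 ligands (GDF15, TGFB1, TGFB2, TGFB3 and INHBA), the receptors TGFBR1 and TGFBR2, the signal transducer SMAD3, its inhibitor SMAD7 and the latency protein LTBP1, out of 21447 genes with a symbol in the deposited transcript tables. They were chosen by name and with their measured change after IR already known, so the values of the 10 genes are given as a description without a test. Bulk RNA-seq was available for 3 libraries of untreated, unsynchronized cells and 3 libraries of cells collected 24 h after 4 Gy of IR, all from unmodified U-2 OS cells grown in the same serum-containing medium. The study describes the 3 libraries of a group as independent samples, without giving how the cultures were separated, so each error and p-value measures the spread between these libraries. In bulk RNA, a change in the share of cells that express a gene and a change in RNA per cell cannot be told apart.

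TGF-β ligands are made as inactive precursors that are held in the extracellular matrix by LTBP proteins and released by integrins and proteases. The active dimer brings the type II receptor TGFBR2 together with the type I receptor TGFBR1, which phosphorylates SMAD2 and SMAD3. These then enter the nucleus with SMAD4, and the inhibitory SMAD7 is one of the genes they switch on. INHBA encodes the subunit of activin A, which signals through related receptors to the same SMADs. GDF15 is a distant member of the family that is known as a secreted stress signal, and its receptor is GFRAL together with RET.

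The libraries held between 18573309 and 22953834 estimated counts, and IR replicate 3 held 45308792. The deposited data of IR replicate 3 also carry a mark in their name that the other libraries lack, and the sources used here do not say whether this library is a repeat run. Markers of a mesenchymal cell were high, with VIM between 1121 and 1476 TPM and SPARC between 1792 and 2022 TPM in all 6 libraries. The osteoblast factor RUNX2 lay between 3.36 and 4.87 TPM, SP7 was listed at 0. Of the bone matrix genes, COL1A1 lay between 443 and 641 TPM, while BGLAP and IBSP did not exceed 0.387 and 0.185 TPM. ALPL, the alkaline phosphatase of osteoblasts, lay between 0.727 and 0.995 TPM without IR and between 1.28 and 2.14 TPM with IR, and its part in the results was not tested. CD3E, HBB and CDKN2A were listed at 0 in every library. The leukocyte marker PTPRC lay between 1.68 and 3.47 TPM without IR and between 0.879 and 1.40 TPM with IR, and its part in the results was not tested. The epithelial marker EPCAM was at 14.5 to 15.9 TPM and CDH1 at most at 1.87 TPM, and the endothelial markers PECAM1, CDH5 and VWF did not exceed 2.39 TPM.

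GDF15 rose 3.68-fold after IR, from the lowest level of the 10 genes, while TGFB1 rose 1.28-fold and TGFB3 fell to 0.715 of its untreated level. The remaining 7 genes, among them both receptors and SMAD3, did not pass the threshold. In the fit over all genes, 2 of the 10 genes passed an adjusted p-value of 0.05 as higher and 1 as lower. Over all 14323 genes tested, 15.5% passed as higher, 14.5% as lower and 30.1% in either direction. The 3 IR libraries were all above the 3 untreated libraries for 2 of the 10 genes and all below them for 4, and 47.1% of all genes tested had groups that did not overlap in this way. Nothing is read from these counts, since the contrast was known when the genes were chosen.

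The start of transcription is shown for the 4 ligands GDF15, TGFB1, TGFB2 and TGFB3, as these hold both ligands that rose, the one that fell and the most abundant one. The sequences are the 250 bases before the RefSeq start site on GRCh38.p14, read on the strand of the gene, which for each of the 10 genes is also the start of the GENCODE canonical transcript. They lie at chr19:18385908-18386157 on the plus strand (GDF15), chr19:41353923-41354172 on the minus strand (TGFB1), chr1:218345086-218345335 on the plus strand (TGFB2) and chr14:75981996-75982245 on the minus strand (TGFB3). Capitals mark TATAAA, the SP1 site GGGCGG or its reverse complement, and the SMAD-binding CAGA core CAGACA.
GDF15: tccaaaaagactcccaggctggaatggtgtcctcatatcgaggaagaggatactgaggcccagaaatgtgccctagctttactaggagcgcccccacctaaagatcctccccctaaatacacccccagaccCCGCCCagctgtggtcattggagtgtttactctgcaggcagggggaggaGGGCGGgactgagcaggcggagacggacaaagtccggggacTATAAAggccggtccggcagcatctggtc
TGFB1: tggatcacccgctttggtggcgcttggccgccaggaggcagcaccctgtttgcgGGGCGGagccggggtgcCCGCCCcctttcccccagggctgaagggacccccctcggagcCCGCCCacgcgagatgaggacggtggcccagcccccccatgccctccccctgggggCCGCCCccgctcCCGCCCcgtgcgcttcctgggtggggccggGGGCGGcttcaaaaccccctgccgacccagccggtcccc
TGFB2: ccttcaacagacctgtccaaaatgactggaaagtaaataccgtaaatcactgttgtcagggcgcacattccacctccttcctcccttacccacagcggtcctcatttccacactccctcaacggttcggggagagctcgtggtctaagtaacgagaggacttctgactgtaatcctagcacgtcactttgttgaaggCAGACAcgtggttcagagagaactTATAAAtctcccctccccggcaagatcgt
TGFB3: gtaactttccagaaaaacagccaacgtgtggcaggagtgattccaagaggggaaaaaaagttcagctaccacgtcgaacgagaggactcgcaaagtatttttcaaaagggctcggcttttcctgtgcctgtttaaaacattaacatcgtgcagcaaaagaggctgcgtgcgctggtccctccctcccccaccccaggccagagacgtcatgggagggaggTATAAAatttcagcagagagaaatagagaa

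A TATA box lay 29 bases before the start in GDF15 and TGFB2 and 30 bases before it in TGFB3. INHBA, the remaining ligand next to TGFB1, had TATAAA 11 bases before its start. The promoter of TGFB1 held no TATAAA but 6 SP1 sites before the start, against 2 in GDF15 and none in TGFB2 and TGFB3. Thus the ligand that rose most, the ligand that fell and 2 ligands that did not pass the threshold all held TATAAA, and so did none of the other 6 genes. Both strands were searched over 300 bases, 250 before the start and 50 from it, in the promoters of the 10 genes and in all 35116 promoters of the RefSeq table. TATAAA was found in 4 of the 10 genes and in 11.5% of all promoters, GGGCGG in 4 (GDF15, TGFB1, TGFBR2 and SMAD3) and in 45.0%, and CAGACA in 2 (TGFB2 and INHBA) and in 16.9%. The AP-1 site TGANTCA was found in TGFBR2 and in 7.71% of all promoters. The ATF4 composite element TGATGNAAN and the palindromic SMAD element GTCTAGAC were found in none of the 10 genes, and in 3.61% and 0.202% of all promoters. CAGACA and GTCTAGAC share the core AGAC, and no 2 matches overlapped in these 10 promoters. A match describes only the sequence, and the absence of a match says only that these letters are not in the window.

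The promoters also differed in base composition. The 250 bases before the start held 58.4% G and C in GDF15, close to the median of 58.0% over all promoters, and 76.8% in TGFB1, 50.4% in TGFB2 and 49.2% in TGFB3. The highest values of the 10 genes were in SMAD3 (80.8%) and TGFBR1 (79.6%), and the lowest in INHBA (42.8%), which held a single CG dinucleotide against 9 in GDF15 and 36 in SMAD3.

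GDF15 (ENSG00000130513, chr19:18374731-18389176, plus strand, 2 exons in its canonical transcript) encodes growth differentiation factor 15. Its level was 1.04, 1.87 and 1.91 CPM (read counts scaled to library size by TMM) without IR, in replicates 1, 2 and 3, and 5.47, 5.93 and 6.47 CPM with IR, in the same order. All IR libraries lay above all untreated libraries, and the lowest of them exceeded the highest untreated library by more than the spread within either group. The mean rose from 1.61 ± 0.489 CPM (SD, n = 3) to 5.96 ± 0.498 CPM (SD, n = 3), which is 1.88 on the log2 scale with a standard error of 0.23 and a 95% interval from 1.38 to 2.38. By log2 fold change GDF15 ranked 19 among the 14323 genes tested.

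These values rest on few reads. GDF15 was assigned 19, 42 and 39 estimated counts in the untreated libraries and 113, 109 and 292 in the IR libraries, the last being the most deeply sequenced library. The counting error is therefore larger for GDF15 than for any of the other 9 genes, which held at least 355 counts in every library. In the fits that each left out 1 library, the log2 fold change of GDF15 stayed between 1.66 and 2.01, with the lower value without untreated replicate 1.

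All GDF15 counts fell on 2 coding transcripts. The canonical transcript GDF15-201 (1200 bases) took 91.3% of them over the 6 libraries, and the shorter GDF15-203 (890 bases) took the remaining 8.75%. GDF15-203 was estimated at 0, 0.176 and 0 TPM (a unit scaled for transcript length) in the untreated libraries and at 0.825, 0.874 and 0.734 TPM with IR. GDF15-201 was estimated at 0.911, 1.48 and 1.75 TPM without IR and at 4.23, 4.16 and 6.22 TPM after IR. Both transcripts were thus higher in each IR library than in each untreated library.

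TGFB1 (ENSG00000105329, chr19:41301587-41353922, minus strand) encodes TGF-β1, the best studied ligand of the family. Its 3 untreated libraries gave 114, 120 and 114 CPM, and its 3 IR libraries gave 155, 150 and 142 CPM. The IR libraries all lay above the untreated libraries, with no overlap. The mean rose from 116 ± 3.67 to 149 ± 6.48 CPM (SD, n = 3 each), which is 0.36 on the log2 scale with a standard error of 0.06 and a 95% interval from 0.21 to 0.50.

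The size of the TGFB1 change differed between scales. Summed TPM of TGFB1 were 83.2, 70.4 and 91.1 in the untreated libraries and 86.0, 92.8 and 77.2 in the IR libraries, so the groups overlapped, with a log2 difference of 0.07 and a standard error of 0.12. A large part of that sum came from TGFB1-202, a retained-intron transcript of only 392 bases. It held 50.6%, 37.7% and 49.6% of the TPM of the gene in the untreated libraries and 34.9%, 47.0% and 8.80% in the IR libraries, but 6.17% of its counts. The canonical coding transcript TGFB1-201 (2780 bases) was at 34.8, 38.8 and 31.0 TPM without IR and at 50.6, 42.9 and 52.7 TPM with IR, without overlap. Exons of TGFB1 overlap those of HNRNPUL1 on the opposite strand, and the sources used here do not state whether reads were assigned by strand.

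TGFB2 (ENSG00000092969, chr1:218345336-218444619, plus strand), which encodes TGF-β2, was the most abundant of the 10 genes. Its 3 untreated libraries gave 282, 284 and 286 CPM, and the IR libraries gave 277, 261 and 233 CPM. All IR libraries lay below the untreated ones, but they spread over 44.1 CPM against 4.03 CPM in the untreated group. The log2 fold change of -0.14 had a 95% interval from -0.31 to 0.02 and did not pass the threshold. The canonical coding transcript TGFB2-202 took 57.0% of the counts of the gene, and TGFB2-203, for which no coding sequence is defined, took 28.9%. In TPM, the 1508-base TGFB2-203 made up 61.6%, 67.5% and 65.6% of the gene in the untreated libraries, and TGFB2-202 was at 40.1, 39.98 and 34.9 TPM there.

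TGFB3 (ENSG00000119699, chr14:75958097-75983011, minus strand), which encodes TGF-β3, gave 25.5, 27.4 and 25.8 CPM without IR and 18.8, 19.3 and 18.2 CPM with IR. The 2 groups did not overlap and each was tight. The mean fell from 26.2 ± 1.03 to 18.8 ± 0.588 CPM (SD, n = 3 each), which is -0.48 on the log2 scale with a standard error of 0.08 and a 95% interval from -0.65 to -0.31. The canonical transcript TGFB3-201 held 80.0% of its counts.

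INHBA (ENSG00000122641, chr7:41667168-41705834, minus strand) gave 70.7, 67.4 and 65.7 CPM without IR and 66.9, 72.0 and 62.4 CPM with IR. The groups overlapped, and the log2 fold change of -0.02 had an interval from -0.18 to 0.14. Thus, in CPM, of the 5 ligand genes, GDF15 and TGFB1 rose, TGFB3 fell, and TGFB2 and INHBA did not pass the threshold. The rise of TGFB1 depended on the scale, as given above.

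**Figure D1:**
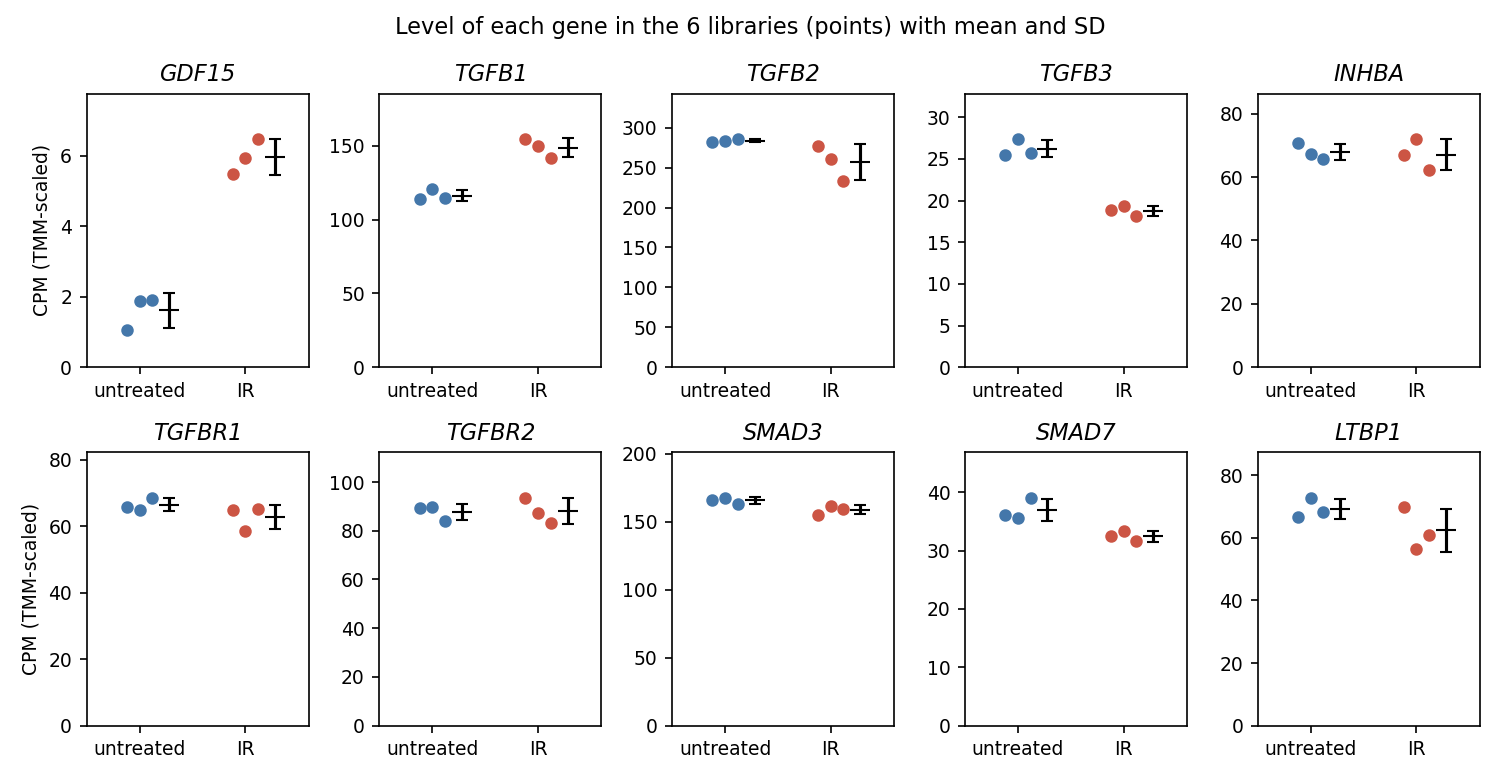
Level of each of the 10 genes in CPM scaled by TMM, with 1 panel per gene and each vertical axis starting at 0. Points are the 3 untreated (blue) and 3 IR (red) libraries, and the black marks give the mean and SD of each group; GDF15 and TGFB1 lie higher in all IR libraries and TGFB2, TGFB3, SMAD3 and SMAD7 lower, with overlap in the other 4 genes.

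In CPM, the receptor genes did not pass the threshold in either direction. TGFBR1 (ENSG00000106799, chr9:99104038-99154192, plus strand), the type I receptor kinase, was at 65.8, 65.0 and 68.7 CPM untreated and at 64.9, 58.7 and 65.1 CPM after IR. TGFBR2 (ENSG00000163513, chr3:30606601-30694142, plus strand), the ligand-binding type II receptor, was at 89.2, 89.8 and 84.1 CPM untreated and at 93.6, 87.3 and 83.1 CPM after IR. For both genes the groups overlapped, with log2 fold changes of -0.08 (95% interval -0.23 to 0.07) for TGFBR1 and 0.00 (-0.15 to 0.16) for TGFBR2. For TGFBR1 the value depended on the scale, at -0.27 (standard error 0.11) with an offset for effective length and -0.31 (standard error 0.14) in TPM, where the untreated libraries (19.8, 22.2 and 19.5 TPM) lay above the IR libraries (16.6, 14.2 and 18.5 TPM).

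Within the receptor genes, estimates for single transcripts moved more than the sums. TGFBR1-208, a coding transcript of 1538 bases, was estimated at 3.07, 4.96 and 1.34 TPM in the untreated libraries and was listed at 0 in all 3 IR libraries. It held only 2.01% of the counts of TGFBR1, and most were on TGFBR1-209 (48.0%) and TGFBR1-201 (41.8%). The retained-intron transcript TGFBR2-205 made up 20.1%, 25.9% and 19.6% of TGFBR2 TPM in the untreated libraries and 30.7%, 41.9% and 30.5% in the IR libraries, again without overlap. Reads shared by several transcripts of a gene are divided by estimation, so these transcript values are less certain than the gene sums.

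SMAD3 (ENSG00000166949, chr15:67063763-67195173, plus strand), which carries the TGF-β and activin signal to the nucleus, gave 166, 168 and 163 CPM without IR. With IR it gave 155, 162 and 160 CPM, below each untreated library, with a log2 fold change of -0.06 and a 95% interval from -0.19 to 0.07. It was at -0.33 (standard error 0.20) with the length offset and -0.34 (standard error 0.20) in TPM, and did not pass in either. SMAD7 (ENSG00000101665, chr18:48919853-48950965, minus strand), a feedback inhibitor that is itself switched on by TGF-β, was at 36.2, 35.6 and 39.1 CPM untreated and at 32.4, 33.3 and 31.6 CPM after IR. Its IR libraries also lay below all untreated ones, and its log2 fold change of -0.19 had an interval from -0.35 to -0.03 but did not pass the threshold over all genes.

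LTBP1 (ENSG00000049323, chr2:32946953-33399509, plus strand, 34 exons in its canonical transcript) encodes the protein that ties latent TGF-β to the matrix. It was at 66.6, 72.9 and 68.3 CPM untreated and at 69.8, 56.4 and 61.0 CPM after IR. IR replicate 1 lay among the untreated libraries and the other two lay below them, and the log2 fold change was -0.15 with a 95% interval from -0.34 to 0.04. Without IR replicate 1 it was -0.25 and LTBP1 passed the threshold as lower.

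Levels of different genes were compared in TPM, because CPM favour long transcripts. In the untreated libraries, the order of the mean TPM was TGFB2 (165), TGFB1 (81.6), SMAD3 (56.9), TGFBR2 (34.1), TGFBR1 (20.5), INHBA (20.1), LTBP1 (17.5), SMAD7 (16.4), TGFB3 (9.44) and GDF15 (1.44). Of the 9 pairs of neighbours in this order, TGFBR1 and INHBA overlapped between untreated libraries, as did LTBP1 and SMAD7, and the other 7 pairs did not. The margin between TGFB1 and SMAD3 was small, at 70.4 TPM in the lowest TGFB1 library against 70.1 TPM in the highest SMAD3 library. After IR, GDF15 was at 5.06, 5.03 and 6.95 TPM and TGFB3 at 7.28, 6.23 and 7.91 TPM, in replicates 1, 2 and 3. The highest GDF15 value passed the lowest of TGFB3, but within each IR library GDF15 stayed below TGFB3.

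The level of SMAD3 varied between libraries, with 70.1, 61.6 and 38.9 TPM in untreated replicates 1, 2 and 3. Its place between TGFB1 and TGFBR2 was the same in each library. The short transcript SMAD3-213 (542 bases) was estimated at 28.2, 21.8 and 0 TPM in these libraries, and at 11.7, 10.6 and 0.511 TPM in IR replicates 1, 2 and 3. The main transcript SMAD3-216 (5838 bases) stayed between 22.3 and 25.2 TPM in all 6 libraries and held 75.1% of the counts of the gene. In SMAD7, the retained-intron transcript SMAD7-202 held 44.04% of the counts, nearly as much as the canonical SMAD7-201 with 49.9%.

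**Figure D2:**
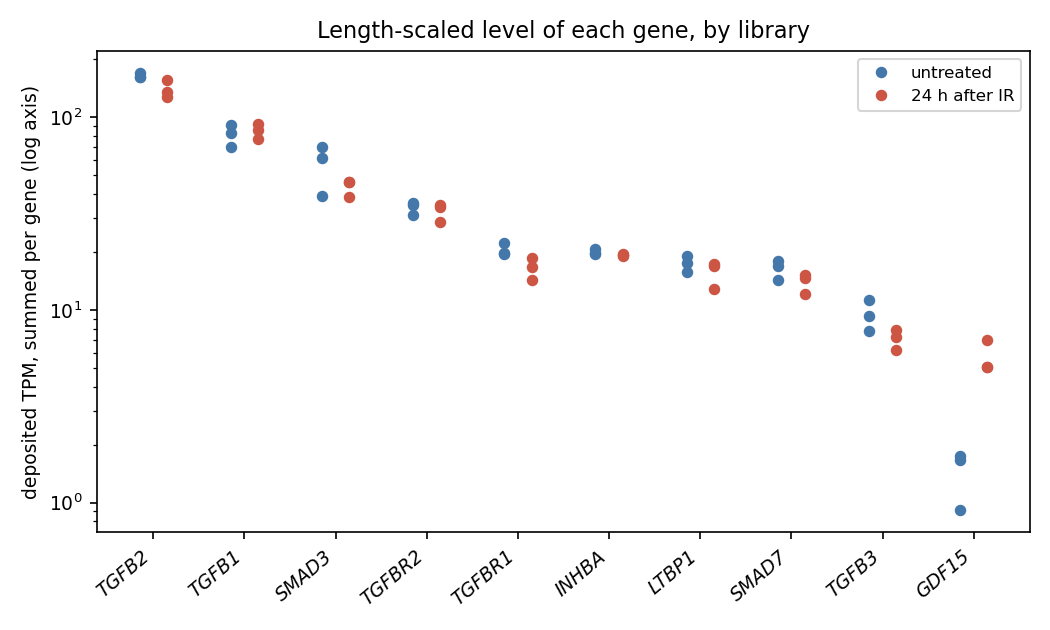
Deposited TPM summed per gene on a log axis, for the 3 untreated (blue) and 3 IR (red) libraries, with the genes in the order of their mean untreated TPM. TGFB2 lies highest (165 TPM on average untreated), and GDF15 lies lowest untreated (1.44 TPM) and next to TGFB3 after IR.

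Over all genes, the change after IR moved with GC content. The median log2 fold change was -0.19 in the eighth of genes with the lowest GC content of their transcripts and 0.34 in the eighth with the highest. The 10 genes span most of this range. GDF15 (63.1% GC) and TGFB1 (60.6%) lie in the highest eighth, TGFB2 (39.97%) and TGFBR1 (38.6%) in the lowest, and TGFB3 (52.0%) and SMAD3 (52.2%) in an eighth with a median of 0.01.

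With the GC trend of each library removed, the log2 fold change of GDF15 was 1.54 with a standard error of 0.22, and that of TGFB3 was -0.52 with a standard error of 0.07. GDF15 and TGFB3 passed the threshold in this fit too. The value of TGFB1 was 0.11 with a standard error of 0.08, and it no longer passed, while SMAD7, at -0.27 with a standard error of 0.07, passed as lower. TGFB2, INHBA, TGFBR1 and TGFBR2 then had values of 0.02, 0.11, 0.11 and 0.08, none of which passed. Whether the GC trend arose in the cells or in the libraries was not tested.

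With an offset for effective length, the value was 2.02 for GDF15, 0.12 for TGFB1 and -0.36 for TGFB3. Of the 10 genes, only GDF15 passed in that fit and in the fit of the deposited TPM, in which it was at 1.69. It passed in each of the 10 alternative fits and in each of the 6 fits that left out a library. Passes of the 10 genes only describe the processing and are not a test, since the contrast was known when the genes were chosen. TGFB1 and TGFB3 passed in all 6 fits that left out a library. TGFB1 was lost with the GC trend removed, with or without the replicate block, under the length offset and in the TPM fit, and TGFB3 was lost under the length offset and the TPM fit only.

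**Figure D3:**
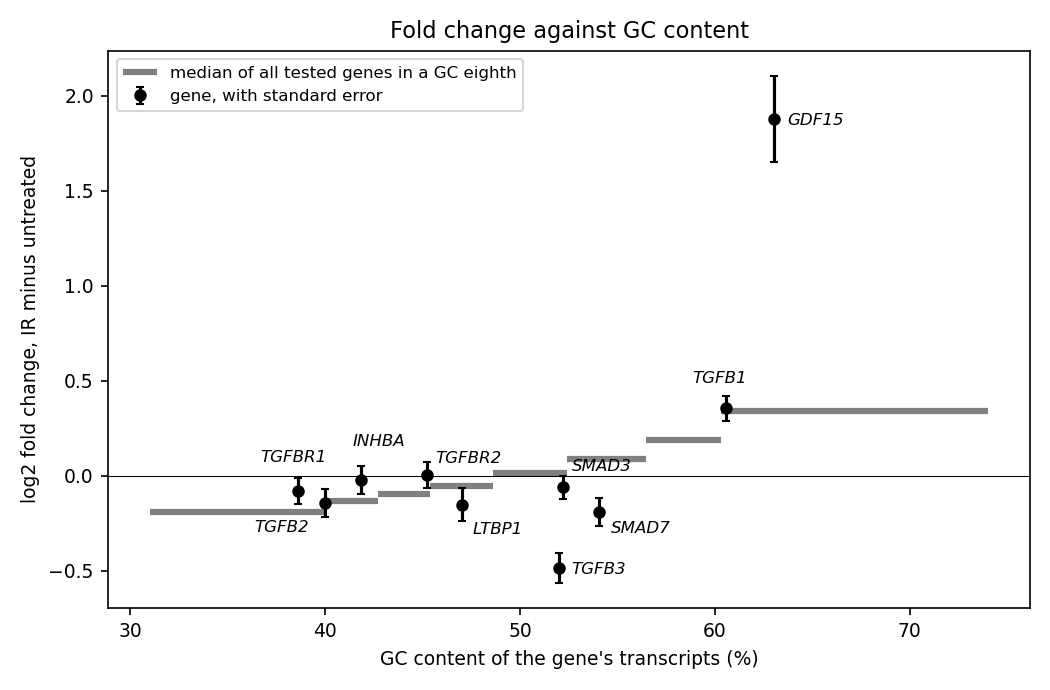
Log2 fold change (IR minus untreated) of each of the 10 genes, with its standard error, against the GC content of its transcripts in percent; grey bars give the median of all tested genes in each GC eighth. The grey bars climb from -0.19 to 0.34, TGFB1 lies on the bar of its eighth, GDF15 lies far above its bar and TGFB3 below.

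**Figure D4:**
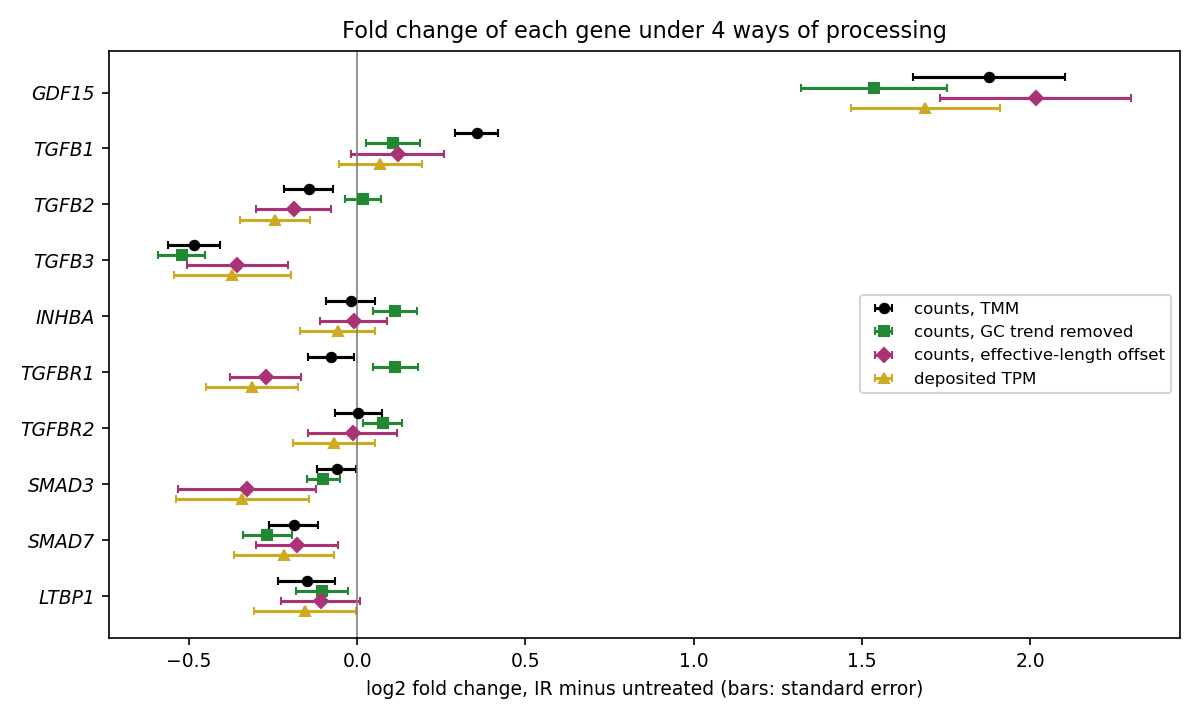
Log2 fold change (IR minus untreated) of each of the 10 genes with its standard error, from counts scaled by TMM, from counts with the GC trend removed, from counts with an effective-length offset and from the deposited TPM. GDF15 lies between 1.54 and 2.02 in these 4 and TGFB3 between -0.52 and -0.36, whereas TGFB1 lies at 0.36 in the first and between 0.07 and 0.12 in the other three.

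The 5 genes with the pattern most like that of GDF15 were COL7A1, MTSS2, NFKBIZ, COL16A1 and CACNA2D4. Likeness was the Pearson correlation of log2 CPM over the 6 libraries among 11676 genes that averaged 100 counts or more, and it lay between 0.995 and 0.998. These points share libraries and a single step between 2 groups, so the values are a description. COL7A1, MTSS2, NFKBIZ, COL16A1 and CACNA2D4 changed by 0.92, 0.17, 0.64, 0.31 and 1.18 on the log2 scale, less than GDF15. Their GC contents were 63.8%, 62.5%, 43.4%, 62.6% and 56.1% in the same order. COL7A1, MTSS2 and COL16A1 thus lie in the highest GC eighth, with its median of 0.34. The part of the GC trend in their likeness to GDF15 was not tested. All 5 genes shared with GDF15 a lower level in untreated replicate 1 than in untreated replicates 2 and 3. For COL7A1 this was 16.3 CPM against 21.3 and 21.7 CPM. Choosing genes by likeness to GDF15 over the same libraries favours such a shared step, so it is no separate observation.

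GFRAL and RET, the receptor pair of GDF15, were not detected at a level that allowed a test, with no library above 0.111 CPM for GFRAL and 0.165 CPM for RET. The transcription factors known to act on GDF15 were counted apart from the pathway. ATF3, a stress-induced factor, rose from 26.9 ± 1.00 to 45.4 ± 3.28 CPM (SD, n = 3 each), which is 0.76 on the log2 scale with a standard error of 0.08 and an adjusted p-value of 0.000328 in edgeR's quasi-likelihood test. EGR1, an immediate early factor, rose by 0.52 (standard error 0.12, adjusted p = 0.00934 in edgeR), with all IR libraries above the untreated ones. EGR1 kept its call in 9 of the 10 alternative fits and lost it in the fit of the deposited TPM. SP1 fell from 161 ± 10.5 to 109 ± 9.91 CPM, by 0.56 on the log2 scale (standard error 0.08, adjusted p = 0.0014 in edgeR). ATF4 and DDIT3, factors of the stress response, did not pass, with log2 fold changes of 0.13 and 0.22.

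The rest of the pathway was taken from a list of 110 genes written from textbook knowledge with earlier results of these data known. Of these, 84 were expressed enough to be tested, and 12 (14.3%) were higher, 15 (17.9%) lower and 57 did not pass the threshold, beside 15.5% and 14.5% of all genes. Their median log2 fold change was 0.01, and it was 0.01 over all genes. In the fit of the deposited TPM, none of the genes of the list passed as higher and 7 passed as lower. The SMADs, the receptors, the latency genes and the targets are described in turn, with adjusted p-values from edgeR over all genes tested. The counts by role rest on few genes, and no test of a role was run.

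Of 6 tested SMAD genes besides SMAD3 and SMAD7, none rose and 3 (50%) fell, beside 15.5% and 14.5% of all genes. SMAD4, the common partner that SMAD3 needs, fell from 50.01 ± 0.902 to 40.1 ± 3.12 CPM (-0.31 on the log2 scale, standard error 0.07, adjusted p = 0.0117). SMAD5, of the BMP branch, fell by 0.36 on the log2 scale (adjusted p = 0.00583). It was at -0.21 with the GC trend removed (adjusted p = 0.0483) and lost its call when the replicate block was added (adjusted p = 0.0792). SMAD2, the other carrier of the TGF-β signal, fell by 0.19 (adjusted p = 0.0459) and lost its call when any untreated library or IR replicate 2 was left out, with values from -0.22 to -0.17. With the GC trend removed, SMAD4 and SMAD2 were at -0.19 and -0.13 and no longer passed.

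Of 12 tested receptors and co-receptors besides TGFBR1 and TGFBR2, 1 (8.33%) rose and 5 (41.7%) fell, beside 15.5% and 14.5% of all genes. TGFBR3, the co-receptor betaglycan that presents TGF-β2 to TGFBR2, fell from 19.9 ± 0.479 to 12.9 ± 0.0854 CPM (-0.63 on the log2 scale, standard error 0.08, adjusted p = 0.000894). It kept its call in all 16 alternative fits. ENG, the co-receptor endoglin, rose from 13.98 ± 0.275 to 20.9 ± 2.51 CPM (0.59 on the log2 scale, standard error 0.10, adjusted p = 0.00289), and was at 0.30 with the GC trend removed, where it still passed. ACVR2B, an activin receptor, fell by 0.48 (adjusted p = 0.00225) and was at -0.16 with the length offset, where it did not pass. BMPR1B, a BMP receptor, fell by 0.30 (adjusted p = 0.0461), a call that was lost without any 1 of the 6 libraries, with values from -0.36 to -0.24, and was at -0.17 with the GC trend removed.

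Of the other 13 tested ligands, 1 (7.69%) rose and 1 (7.69%) fell, beside 15.5% and 14.5% of all genes. INHBE, a subunit of activin E, fell from 7.496 ± 1.51 to 3.86 ± 0.0992 CPM (-0.96 on the log2 scale, standard error 0.18, adjusted p = 0.00378), and was at -0.61 with the length offset, where it did not pass. BMP7 rose by 0.59 (adjusted p = 0.0245) and lost its call without untreated replicate 1, 2 or 3 or IR replicate 3, with values from 0.41 to 0.68. It was at 0.32 with the GC trend removed and did not pass.

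Next to LTBP1, 2 of 13 tested genes of latency and activation rose (15.4%) and 2 fell (15.4%), beside 15.5% and 14.5% of all genes. The integrin subunits ITGAV and ITGB8, which pair to release latent TGF-β, fell together and kept their calls in all 16 alternative fits. ITGB8 fell from 46.1 ± 2.20 to 27.4 ± 2.82 CPM (-0.76 on the log2 scale, standard error 0.09, adjusted p = 0.000577), and ITGAV from 339 ± 4.86 to 238 ± 11.7 CPM (-0.51 on the log2 scale, standard error 0.06, adjusted p = 0.000684). LTBP4 and LTBP3, relatives of LTBP1, rose by 0.45 and 0.40 (adjusted p = 0.00828 and 0.00718). With the GC trend removed these 2 were at 0.07 and 0.03 and did not pass. FURIN, the protease that cleaves the TGF-β precursor, was at 0.21 (adjusted p = 0.0717). Its direction turned to -0.09 with the GC trend removed (adjusted p = 0.261), and it passed only in the DESeq2 Wald test, at 0.21 (adjusted p = 0.0482).

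Among inhibitors, FST, the secreted activin antagonist follistatin, was the only 1 of 8 tested extracellular antagonists (12.5%) that passed, beside 30.1% of all genes. It rose from 38.0 ± 3.27 to 51.8 ± 3.83 CPM (0.45 on the log2 scale, standard error 0.09, adjusted p = 0.0044). Of 9 tested intracellular inhibitors besides SMAD7, 1 (11.1%) rose and 2 (22.2%) fell, beside 15.5% and 14.5% of all genes. SKIL, a SMAD co-repressor, fell by 0.32 (adjusted p = 0.00553) and was at -0.11 with the GC trend removed, where it did not pass. SMURF1, a ubiquitin ligase that works with SMAD7, fell by 0.23 (adjusted p = 0.0387), and PMEPA1, a TGF-β-induced inhibitor, rose by 0.20 (adjusted p = 0.0363). Both calls were lost when most single libraries were left out, with values from -0.27 to -0.18 for SMURF1 (lost without each but IR replicate 1) and from 0.16 to 0.23 for PMEPA1 (lost without each but IR replicate 3). With the GC trend removed PMEPA1 was at 0.07 and did not pass.

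Of 16 tested TGF-β targets, 4 (25%) were higher and 2 (12.5%) lower, beside 15.5% and 14.5% of all genes. CCN2, a matricellular growth factor, rose from 165 ± 2.84 to 201 ± 9.20 CPM (log2 fold change 0.28, adjusted p = 0.00875), and was lost without untreated replicate 1, at 0.27. With the length offset CCN2 was at 0.33 and did not pass (adjusted p = 0.0561). SNAI2, a factor of mesenchymal transition, and IL11, a cytokine, rose by 0.48 and 0.32 (adjusted p = 0.0193 and 0.0192). The calls of both were lost without untreated replicate 1 or 2, and that of SNAI2 also without IR replicate 1 or 2, with values from 0.38 to 0.61 for SNAI2 and from 0.29 to 0.35 for IL11. IL11 was at 0.13 with the GC trend removed and did not pass. TPM1, an actin-binding tropomyosin, fell from 579 ± 29.2 to 400.3 ± 18.2 CPM (-0.53 on the log2 scale, standard error 0.07, adjusted p = 0.000745). PDGFB, a growth factor, fell by 0.52 (adjusted p = 0.0288), a call lost without any 1 library but IR replicate 3, with values from -0.60 to -0.46. With the length offset PDGFB was at -0.38 and did not pass (adjusted p = 0.235).

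Of 7 tested BMP targets, 2 (28.6%) rose and none fell, beside 15.5% and 14.5% of all genes. ID1, an inhibitor of bHLH factors, rose from 59.9 ± 8.29 to 95.6 ± 17.8 CPM (0.68 on the log2 scale, standard error 0.13, adjusted p = 0.00528). ID3 rose by 0.49 (adjusted p = 0.0296) and lost its call without untreated replicate 1 or 3 or IR replicate 3, with values from 0.30 to 0.62. It was at 0.36 with the GC trend removed and did not pass.

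**Figure D5:**
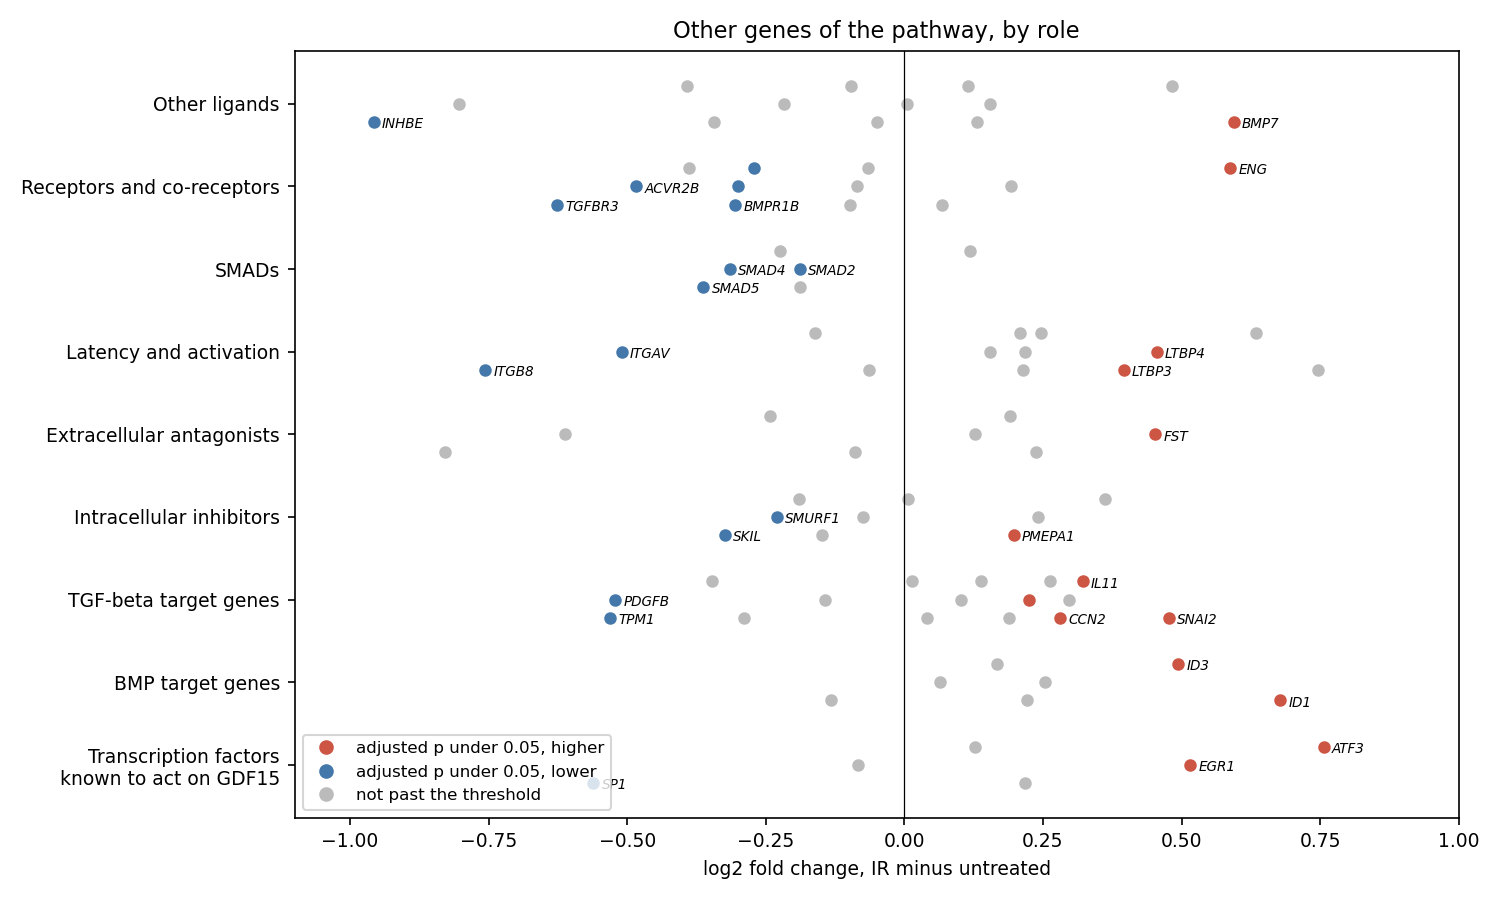
Log2 fold change (IR minus untreated) of the tested genes of the pathway list and of the transcription factors, in 1 row per role. Each point is a gene, red where it was higher and blue where it was lower at an adjusted p-value under 0.05, and grey otherwise. The names are given for the genes described in the text. No SMAD gene and 1 receptor gene lie in red, beside 15.5% of all genes tested that were higher.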

How the data were processed

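Bulk RNA-seq of 3 untreated and 3 irradiated U-2 OS libraries was analysed, with groups and replicate numbers from the sample labels. According to the methods of the study, the authors removed adaptors with fastp and assigned reads by pseudoalignment with kallisto against GENCODE release 37 (GRCh38), and the processing notes of the submitters also name kallisto and GRCh38. For each transcript and library, the authors deposited an estimated count that is not normalized, a TPM scaled for effective length and library total, and both lengths. The effective length exceeded the length for 24.2% to 29.1% of transcripts, so the deposited TPM may include a correction for sequence bias, which the sources used here do not state. Poly(A) RNA and an mRNA kit are given in the labels, but a total RNA kit in the study's methods.

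Of 161171 transcripts, 158711 were found by identifier in GENCODE release 44, which gave symbols, coordinates and GC content. Estimated counts were summed per gene, rounded and fitted over all genes with edgeR 4.0.16 (filterByExpr, TMM, glmQLFit and glmQLFTest, Benjamini–Hochberg adjustment, threshold 0.05; limma 3.58.1, DESeq2 1.42.0, R 4.3.3). The standard error is the log2 fold change divided by the square root of F, and intervals are at 95%. Promoters came from the RefSeq table for GRCh38.p14. The fit was checked on counts drawn from the means and library sizes of these libraries.

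The 10 genes, the pathway list, the markers and the motifs were chosen with earlier results of these data known. All 10 genes are named. From each role of the list, up to 4 genes past the threshold with the largest absolute log2 fold change and a mean of at least 100 counts are named, and in addition, whatever their result, CCN2, ID1, SMAD2, SMAD4, FURIN and the transcription factors. Some genes and 1 motif that these rules select are not reported here. Alternatives were another filter, the likelihood ratio test of edgeR, size factors and the Wald test of DESeq2, a length offset, a replicate block, removing the GC trend with and without the block, limma on log2(TPM + 0.5), and leaving out each library in turn. The chi-square per gene between replicates was at least 3.47, so no library was taken for a copy of another. It was 28.0 and 31.1 between IR replicate 3 and IR replicates 1 and 2, and 5.95 between IR replicates 1 and 2. Among untreated libraries it was at most 9.20. The value was taken on unscaled counts, so it also rises with depth, and the departure of IR replicate 3 was not tested.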

Additional observations from a re-analysis of the deposited data

How the results depend on the processing

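GDF15 kept its direction in every alternative. Its log2 fold change was 1.54 with the GC trend removed and between 1.66 and 2.01 over the fits that left out a library. Against 2227 genes higher and 2080 lower, 837 and 875 passed with the length offset and 400 and 901 with the deposited TPM. With the GC trend removed and the replicate block, 1475 genes passed as higher. Leaving out a library gave 1295 to 2114 genes higher and 1244 to 2284 lower. Of the pathway list, 12 higher and 15 lower became 7 and 13 with the GC trend removed, 6 and 10 with the replicate block added, 7 and 7 with the length offset, 0 and 7 with the deposited TPM, and 5 to 11 and 9 to 16 without a library. The fewest, 5 higher and 9 lower, came without untreated replicate 1 and without untreated replicate 2. The causes of these shifts were not tested. The replicate numbers are shared between the groups. Deviations of gene sums in same-numbered libraries correlated at 0.040, -0.014 and -0.095 for replicates 1, 2 and 3. On this basis the main fit did not pair the libraries, but transcript estimates were not part of the check. TGFB1-205 held 0, 0 and 143 counts in untreated replicates 1, 2 and 3 and 0, 0 and 145 in the IR replicates. TGFB3-206 held 112, 61.1 and 0, and 79.2, 0 and 112, in the same order. Whether same-numbered libraries share a batch was not tested. With the replicate block, 1727 genes were higher and 1624 lower, and 5 of the 32 named pathway genes lost their call. GDF15 had 19 counts in untreated replicate 1, which limits the precision of its untreated level. CPM per kb of effective length is the deposited TPM times a constant in each library, so it was no separate check of the order of levels.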
